A study of Mus musculus with 18 samples.

Results

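The genes described here are 10 genes for enzymes and helper proteins that modify, process and crosslink collagen: Lox, Loxl1, Loxl2, Loxl3, Plod1, Plod2, P4ha1, Serpinh1, Pcolce and Tgm2. They were taken by gene name from the count tables of 18 mouse heart libraries. All 10 were found, among 35560 genes present in both tables, and all 10 were among the 14623 genes with enough counts to be tested.

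Collagen chains are hydroxylated on proline and lysine in the endoplasmic reticulum, fold into a triple helix with the help of a dedicated chaperone, and are secreted as procollagen. Outside the cell the propeptides are cut off, the molecules assemble into fibrils, and lysyl oxidases oxidize lysine and hydroxylysine side chains, which then react to form covalent crosslinks. In the heart, crosslinking makes the collagen network stiffer and harder to degrade, and it is a known feature of fibrosis under chronic adrenergic stress.

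Every heart came from a male wild-type C57BL/6 mouse given daily subcutaneous isoproterenol (ISO), which stimulates beta-adrenergic receptors and injures the myocardium, at 2.5 mg/kg/day over 21 days. The 6 mice of the ISO group received water by gavage. The 6 mice of the 100 nm group and the 6 mice of the 1 µm group received polystyrene (PS) particles of that diameter by gavage at 50 mg/kg/day over the same 21 days. No group was free of ISO, so a value cannot be set against an unstressed heart, and the comparisons ask what the particles add to ISO. The mice's ages are not given in the sources used here. One sequencing provider (batch 1) handled 3 ISO, 5 100 nm and 4 1 µm libraries, and another (batch 2) handled 3, 1 and 2.

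The libraries held 14032257 to 22600570 counts. In ISO replicate 2, 13152 genes were detected, while the remaining libraries had 16562 to 18755. ISO replicates 1 and 2 stood apart from the rest, so results are also given without them. The atrial markers Myl4 and Myl7 reached 573 and 351 CPM (a gene's count relative to the library's scaled total) in 100 nm replicate 1, against 0.789 to 5.90 and 0 to 5.51 CPM in the other 17 libraries. Of the cardiomyocyte markers, 7 of 7 were detected in every library, at 25380 to 103900 CPM in sum. In bulk tissue, fewer cells of a type and less RNA per cell cannot be told apart.

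Promoter sequences from RefSeq (GRCm38.p6) were at hand for 4 of the 10 genes: Plod1, Serpinh1 and Pcolce, which passed the test below, and P4ha1, which did not. They are shown so that the start regions of genes that rose and of one that did not can be read side by side. The table used here did not match Lox, Loxl1, Loxl2, Loxl3, Plod2 and Tgm2. Each sequence is the 250 bases before the annotated start, 5′ to 3′ on the strand of the gene, with matches to the GC box GGGCGG on either strand in capitals.
Plod1: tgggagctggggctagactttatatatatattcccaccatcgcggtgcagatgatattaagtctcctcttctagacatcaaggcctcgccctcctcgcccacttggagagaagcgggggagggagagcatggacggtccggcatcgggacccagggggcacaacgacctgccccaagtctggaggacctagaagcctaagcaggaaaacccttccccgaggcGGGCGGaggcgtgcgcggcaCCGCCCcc
Serpinh1: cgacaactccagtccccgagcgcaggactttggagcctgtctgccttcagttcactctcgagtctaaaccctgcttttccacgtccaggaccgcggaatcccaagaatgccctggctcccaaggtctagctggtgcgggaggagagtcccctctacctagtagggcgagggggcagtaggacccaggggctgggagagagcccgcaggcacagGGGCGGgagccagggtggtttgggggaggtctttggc
Pcolce: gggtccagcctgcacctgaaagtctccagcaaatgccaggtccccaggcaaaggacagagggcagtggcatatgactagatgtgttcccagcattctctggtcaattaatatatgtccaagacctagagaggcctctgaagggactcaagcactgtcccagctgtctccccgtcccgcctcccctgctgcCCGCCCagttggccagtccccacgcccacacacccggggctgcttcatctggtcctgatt
P4ha1: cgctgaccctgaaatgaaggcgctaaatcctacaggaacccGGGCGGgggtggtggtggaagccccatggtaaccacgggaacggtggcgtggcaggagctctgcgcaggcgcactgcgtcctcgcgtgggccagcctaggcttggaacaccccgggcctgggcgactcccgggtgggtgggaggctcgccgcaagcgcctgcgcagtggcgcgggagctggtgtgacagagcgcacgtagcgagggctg

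These windows lie at chr4:147936777-147937026 (minus strand), chr7:99353240-99353489 (minus strand), chr5:137611405-137611654 (minus strand) and chr10:59323046-59323295 (plus strand) of GRCm38.p6. The GC box had 2 matches before Plod1 and 1 match each before Serpinh1, Pcolce and P4ha1, and 32.7% of all 32851 promoter windows of this length held at least 1. The GC content of the windows was 61.6% for Plod1, 63.6% for Serpinh1, 58.8% for Pcolce and 69.6% for P4ha1, against a median of 52.4% over all windows. The GC box was found both before genes that passed and before the one that did not. ACGTG, a form of the core of the hypoxia response element, was searched on both strands, as were the motifs below. It matched once before Serpinh1 and once before P4ha1, and was present in 16.6% of all windows. The form GCGTG of this core was not searched, so the other windows cannot be said to lack the core. TATAAA matched once, before Plod1, against 12.4% of all windows. CCAAT (33.9% of all windows) and the heat shock element pair GAANNTTC (6.69%) were in none of these 4 windows.

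Of the 10 genes, 6 were higher with 100 nm PS than with ISO alone and none was lower: Loxl1, Loxl3, Plod1, Serpinh1, Pcolce and Tgm2. The same 6 genes were higher with 1 µm PS, and again none was lower. The test was edgeR's quasi-likelihood test with batch as a term and Benjamini-Hochberg adjustment over all 14623 genes, and an adjusted p under 0.05 counts as passed. Among all genes tested, 3.88% were higher and 5.69% lower at 100 nm (9.57% in either direction), and 2.89% were higher and 4.5% lower at 1 µm (7.39%). The median log2 fold change of the 10 genes was 0.83 at 100 nm and 0.71 at 1 µm, against -0.023 and -0.0021 over all genes. Both particle sizes are compared with the same 6 ISO libraries, so the results for both sizes are not independent.

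**Figure D1:**
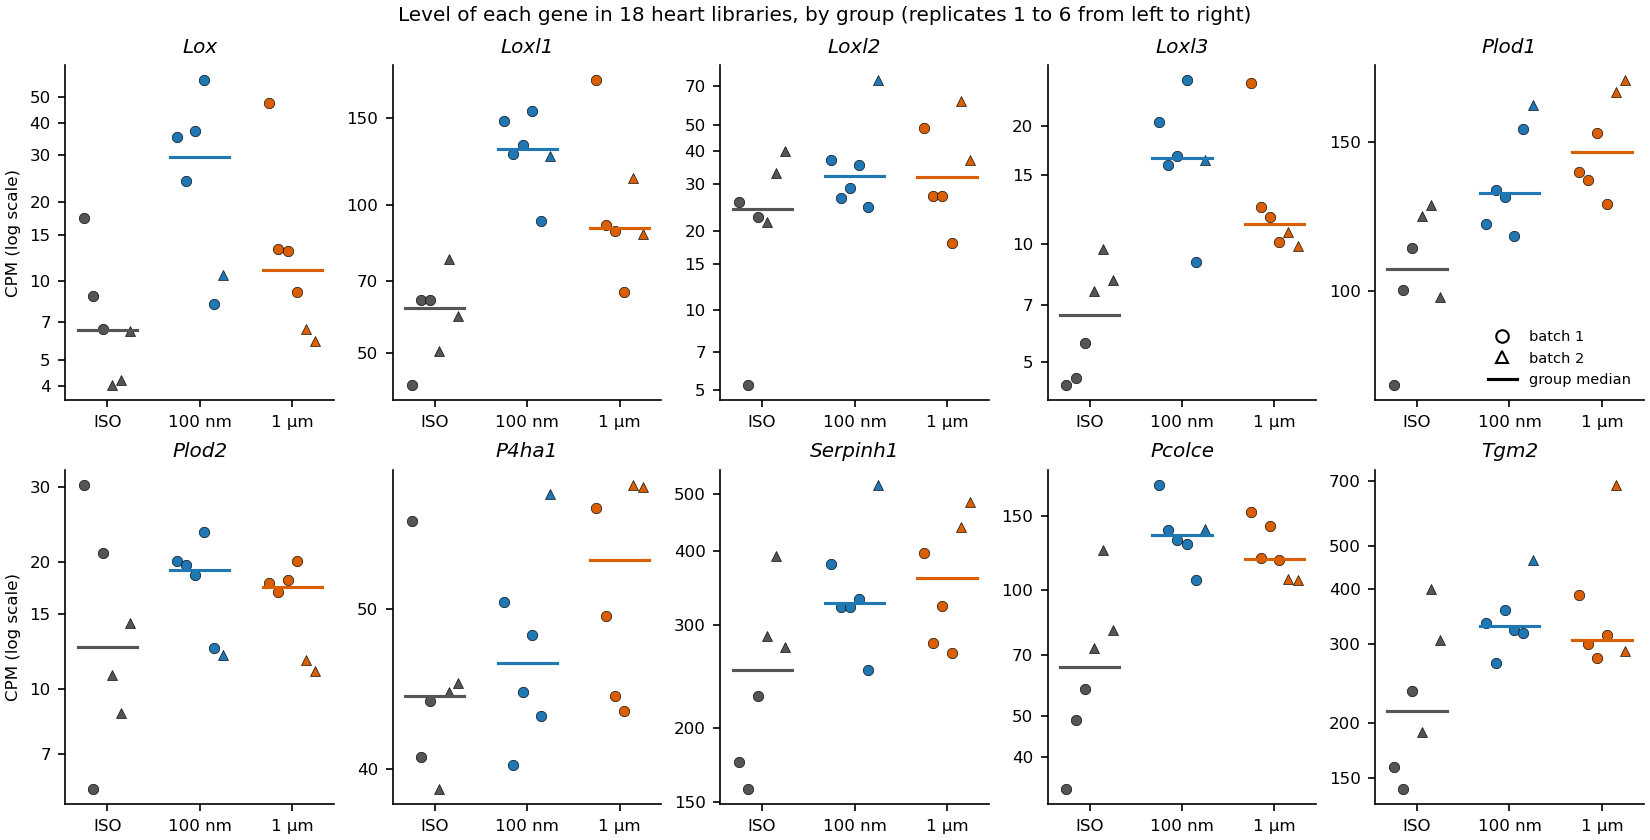
Level of each gene in CPM (log axis) in the 18 libraries, by group; circles are batch 1, triangles are batch 2, and lines are group medians. Loxl1 lay at 43.1 to 77.5 CPM in ISO and at 92.6 to 155 CPM with 100 nm PS, while the Plod2 and P4ha1 ranges overlapped in all groups.

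Among the lysyl oxidases, Loxl1 and Loxl3 passed the test and Lox and Loxl2 did not. Loxl1, a lysyl oxidase needed above all for elastic fibres, had a lowest, median and highest level of 43.1, 61.7 and 77.5 CPM in ISO, of 92.6, 129 and 155 CPM with 100 nm PS, and of 66.4, 89.8 and 179 CPM with 1 µm PS. Every 100 nm library lay above every ISO library, which held for 1.63% of all genes tested, and of the 1 µm libraries only replicate 4 lay inside the ISO range. On the log2 scale Loxl1 rose by 1.13 (SE 0.23, edgeR adjusted p = 0.0117) at 100 nm and by 0.80 (SE 0.22, adjusted p = 0.0350) at 1 µm. Its call at 100 nm was kept in each of the 18 fits that left out 1 library.

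Loxl3, a lysyl oxidase with a scavenger receptor region, was expressed at a low level, at 4.38, 6.61 and 9.72 CPM (lowest, median, highest) in ISO, 9.02, 16.6 and 26.1 CPM at 100 nm, and 9.86, 11.2 and 25.7 CPM at 1 µm. All 1 µm libraries lay above all ISO libraries, and only 100 nm replicate 5 lay below the highest ISO library. Loxl3 had the largest log2 fold change of the 10 genes at both sizes, 1.43 (SE 0.31, adjusted p = 0.0156) at 100 nm and 1.05 (SE 0.30, adjusted p = 0.0440) at 1 µm by edgeR. Its exons overlap those of Htra2 on the opposite strand over 535 bases in GENCODE M21. Whether counting used strand is not stated, so reads from both genes cannot be told apart there.

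Lox, the founding lysyl oxidase and a main collagen crosslinking enzyme, did not pass. It was measured at 4.04, 6.52 and 17.4 CPM (lowest, median, highest) in ISO, 8.16, 29.6 and 57.8 CPM at 100 nm, and 5.91, 11.04 and 47.4 CPM at 1 µm. Replicates 1 to 4 of the 100 nm group and replicate 1 of the 1 µm group lay above all ISO libraries, while the others overlapped them. The spread within a group was up to 8.02-fold between lowest and highest library, and the log2 fold changes were 1.39 (SE 0.46, edgeR adjusted p = 0.0595) and 0.69 (SE 0.44, adjusted p = 0.321). It passed at 100 nm when 1 µm replicate 1 or 100 nm replicate 5 was left out, with 0.0264 as the lowest adjusted p.

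Loxl2, a lysyl oxidase that crosslinks type IV and fibrillar collagens, did not pass either. Levels ran from 5.25 over a median of 24.1 to 39.8 CPM in ISO, from 24.5 over 32.1 to 73.5 CPM at 100 nm, and from 17.9 over 31.9 to 61.6 CPM at 1 µm. The groups overlapped, and ISO replicate 2 alone lay far below all other libraries. The log2 fold changes were 0.88 (SE 0.32, edgeR adjusted p = 0.0813) and 0.74 (SE 0.31, adjusted p = 0.136), and of the 18 edgeR fits that left out 1 library, Loxl2 passed at 100 nm in the one without ISO replicate 1 (adjusted p = 0.0460).

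Among the intracellular enzymes, the lysyl hydroxylase of the helix passed the test and that of the telopeptides did not. Plod1, which hydroxylates lysines of the helical part of collagen, was at 77.6, 106 and 127 CPM (lowest, median, highest) in ISO, 116, 131 and 166 CPM at 100 nm, and 127, 146 and 178 CPM at 1 µm. The 1 µm libraries lay above all ISO libraries (126.7 against 126.6 CPM at the nearest point), and within each batch every PS library lay above every ISO library. By edgeR it rose by 0.46 (SE 0.14, adjusted p = 0.0399) at 100 nm and by 0.55 (SE 0.13, adjusted p = 0.0230) at 1 µm on the log2 scale, the smallest rises among the 6 genes.

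Plod2, the lysyl hydroxylase of collagen telopeptides, was at 5.79, 12.6 and 30.4 CPM (lowest, median, highest) in ISO, 12.0, 19.1 and 23.5 CPM at 100 nm, and 11.03, 17.4 and 20.04 CPM at 1 µm. ISO held both the lowest library (replicate 2) and the highest (replicate 1), and both PS groups lay inside its range. The log2 fold changes were 0.018 (95% confidence interval -0.55 to 0.59) and -0.031 (-0.59 to 0.53), so a change of up to about 0.59 in either direction is within the error.

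P4ha1, a catalytic subunit of prolyl 4-hydroxylase, was at 38.9, 44.3 and 56.5 CPM in ISO (lowest, median, highest), 40.3, 46.4 and 58.7 CPM at 100 nm, and 43.4, 53.5 and 59.4 CPM at 1 µm. Its groups overlapped, and it varied least between ISO libraries among the 10 genes (1.45-fold from lowest to highest). For P4ha1 the log2 fold changes were 0.12 (95% confidence interval -0.17 to 0.41) and 0.23 (-0.052 to 0.51). In batch 2 alone the 3 PS libraries (58.7 to 59.4 CPM) lay above the 3 ISO libraries (38.9 to 45.1 CPM), and in batch 1 they overlapped (40.3 to 57.5 against 40.7 to 56.5 CPM).

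Serpinh1, also called HSP47, is the collagen chaperone of the endoplasmic reticulum. It was measured at 158, 251 and 392 CPM (lowest, median, highest) in ISO, 251, 326 and 519 CPM at 100 nm, and 268, 360 and 484 CPM at 1 µm. The groups overlapped over all libraries but not within a batch, where ISO held 158 to 227 CPM against 251 to 397 CPM with PS in batch 1, and 275 to 392 against 440 to 519 CPM in batch 2. Serpinh1 had log2 fold changes of 0.74 (SE 0.17, edgeR adjusted p = 0.0173) and 0.67 (SE 0.16, adjusted p = 0.0238).

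Pcolce, the procollagen C-endopeptidase enhancer, speeds the removal of the C-propeptide by BMP1. It was at 33.5, 65.2 and 124 CPM (lowest, median, highest) in ISO, 105, 135 and 178 CPM at 100 nm, and 106, 118 and 153 CPM at 1 µm. ISO replicate 5, at 124 CPM, lay inside both PS ranges, and the other 5 ISO libraries lay below every PS library. Its log2 fold changes were 1.12 (SE 0.25, edgeR adjusted p = 0.0165) and 0.95 (SE 0.24, adjusted p = 0.0282). With Loxl1 it was the only gene of the 10 whose call at 100 nm was kept whichever library was left out. Its exons share 112 bases with Fbxo24 on the same strand.

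Tgm2, tissue transglutaminase, forms glutamine-lysine crosslinks between matrix proteins. It was at 142, 213 and 400 CPM (lowest, median, highest) in ISO, 272, 329 and 464 CPM at 100 nm, and 280, 307 and 686 CPM at 1 µm. ISO replicates 5 and 6 lay inside the PS ranges, and 1 µm replicate 5 stood far above the rest of its group. By edgeR, Tgm2 rose by 0.78 on the log2 scale (SE 0.22, adjusted p = 0.0386) at 100 nm and by 0.78 (SE 0.22, adjusted p = 0.0381) at 1 µm. Exons of Tgm2 overlap Rprd1b (370 bases) and Gm20412 (633 bases) on the opposite strand, so part of its counts is uncertain without strand. The same holds for Loxl2 with Gm27177 (301 bases), Plod2 with Gm38391 (346 bases), Pcolce with Gm36266 (112 bases) and Lox with AC161119.1 (30 bases), all on the opposite strand.

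The calls differed in how far they rested on single libraries. At 100 nm, Loxl3 and Serpinh1 lost their call only without 100 nm replicate 6, the one 100 nm library of batch 2 (adjusted p = 0.0515 and 0.0583). Plod1 passed at 100 nm in 6 of 18 such fits, those without ISO replicate 2, 3 or 5, 1 µm replicate 3 or 5, or 100 nm replicate 4, with a highest adjusted p of 0.105. Tgm2 also passed in 6 of 18, those without ISO replicate 3 or 5 or 1 µm replicate 1, 3, 5 or 6, with a highest adjusted p of 0.0831. Without 100 nm replicate 1, the library with atrial markers, Loxl1, Loxl3, Pcolce and Serpinh1 passed. In that fit 191 of 14774 genes were higher at 100 nm, against 567 of 14623 with all libraries.

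At 1 µm, Plod1 and Serpinh1 passed in 16 of 18 fits that left out 1 library and failed without 1 µm replicate 1 or 3 (highest adjusted p 0.0565 and 0.0594). Pcolce passed in 14 and failed without ISO replicate 4 or 1 µm replicate 1, 3 or 4 (highest 0.0650). Loxl1 passed in 12 and failed without ISO replicate 4 or 6 or 1 µm replicate 1, 2, 3 or 5 (highest 0.0748). Loxl3 passed in 5, those without ISO replicate 5, 1 µm replicate 5 or 6, or 100 nm replicate 4 or 5, and its highest adjusted p was 0.0868. Tgm2 passed in 5, those without ISO replicate 1, 2, 3 or 5 or 1 µm replicate 6, and its highest adjusted p was 0.106. None of the 10 genes passed at 1 µm without 1 µm replicate 1, where 93 of 14811 genes were higher, and none without 1 µm replicate 3, where 96 of 14765 were.

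Without both ISO replicates 1 and 2, Loxl1 alone passed at 100 nm (1.00, adjusted p = 0.0420; 1.37% of all genes were higher) and Plod1 alone at 1 µm (0.48, adjusted p = 0.0402; 2.1%). The log2 fold changes of the 6 genes stayed above 0 and became smaller at both sizes, for Pcolce from 1.12 to 0.71 and for Loxl3 from 1.43 to 1.06 at 100 nm. For the mean of both PS groups Loxl1, Plod1 and Serpinh1 passed without these libraries, and 6 genes passed with them, all higher (6.8% of all genes were higher and 10.9% lower with all libraries, and 3.61% were higher without both). With no batch term 3 of the 10 were higher for this mean (1.76% of all genes). DESeq2 added Lox and Loxl2 to the 6 genes at 100 nm (8 of 10, against 7.57% of all genes).

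**Figure D2:**
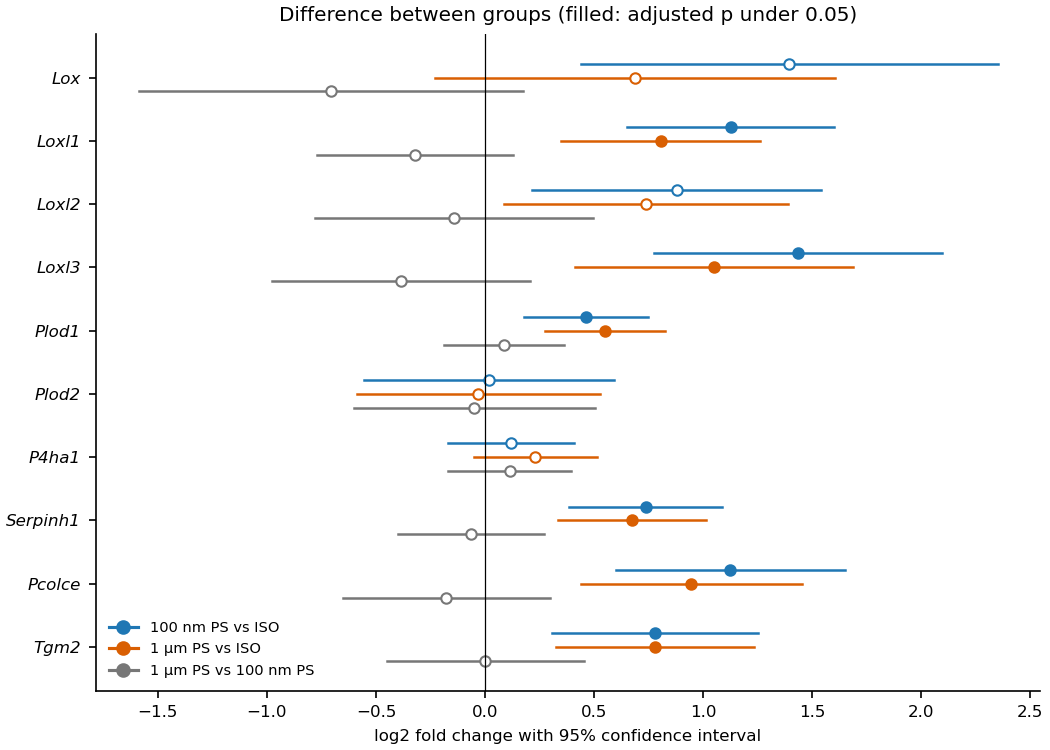
Log2 fold change of each gene with its 95% confidence interval for 3 comparisons; filled points passed at an adjusted p under 0.05. Intervals for 100 nm and 1 µm PS against ISO lay above 0 for Loxl1, Loxl2, Loxl3, Plod1, Serpinh1, Pcolce and Tgm2, and every interval of 1 µm against 100 nm PS held 0.

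Particle size made no difference that passed the test. None of the 10 genes differed between 1 µm and 100 nm PS, and neither did any other gene (0 of 14623 by edgeR, with 49 at an unadjusted p under 0.05, and 0 by DESeq2, with 74; 0% of all genes). The largest difference was that of Lox, at -0.71 for 1 µm minus 100 nm (95% confidence interval -1.59 to 0.18). Loxl3 followed at -0.38 (-0.98 to 0.21) and Loxl1 at -0.32 (-0.77 to 0.13). For Plod1, P4ha1 and Tgm2 the upper bounds were 0.36, 0.40 and 0.45. These intervals do not show that the sizes act alike, and neither do the 49 and 74 genes above. With no difference, a well-calibrated test would put a fraction of about 0.05 of all genes there, far more than were found. Without ISO replicates 1 and 2, which enter this comparison only through the shared spread, 221 of 15028 genes lay there by edgeR.

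The effect of PS was also compared between the batches, with both sizes in 1 term because batch 2 held 1 library of 100 nm PS. None of the 10 genes passed the batch-by-PS test, in which 2.5% of all genes passed in either direction. Pcolce came nearest, with an effect smaller in batch 2 by 1.18 on the log2 scale (SE 0.32, edgeR adjusted p = 0.0530), and it passed without ISO replicate 2 or 3 (lowest adjusted p 0.0132). P4ha1 passed in the other direction without ISO replicate 2 (0.58, edgeR adjusted p = 0.0477), against 0.47 (SE 0.21, adjusted p = 0.217) with all libraries. In those fits far more genes were called overall than with all libraries. Without ISO replicate 2, 3321 of all 14808 genes passed this test, and without ISO replicate 3, 1159 of 14833 did. The calls of Pcolce and P4ha1 there are thus not particular to these genes. Loxl3 differed by -1.22 (SE 0.48, adjusted p = 0.162). For the mean of both PS groups, Pcolce had a log2 fold change of 1.52 in batch 1 alone and 0.39 in batch 2 alone, and Loxl3 had 1.74 and 0.61, while Serpinh1 (0.77 and 0.62), Plod1 (0.47 and 0.55) and Loxl1 (1.05 and 0.84) were closer. In batch 1 alone 5 of the 10 genes were higher at 100 nm (3.01% of all genes) and 2 at 1 µm (1.7%), with 5 for the mean of both (4.74%), and in batch 2 alone none was higher (0.0348% and 0.0418%). The lone 100 nm library of batch 2 is assumed there to vary like the other groups.

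**Figure D3:**
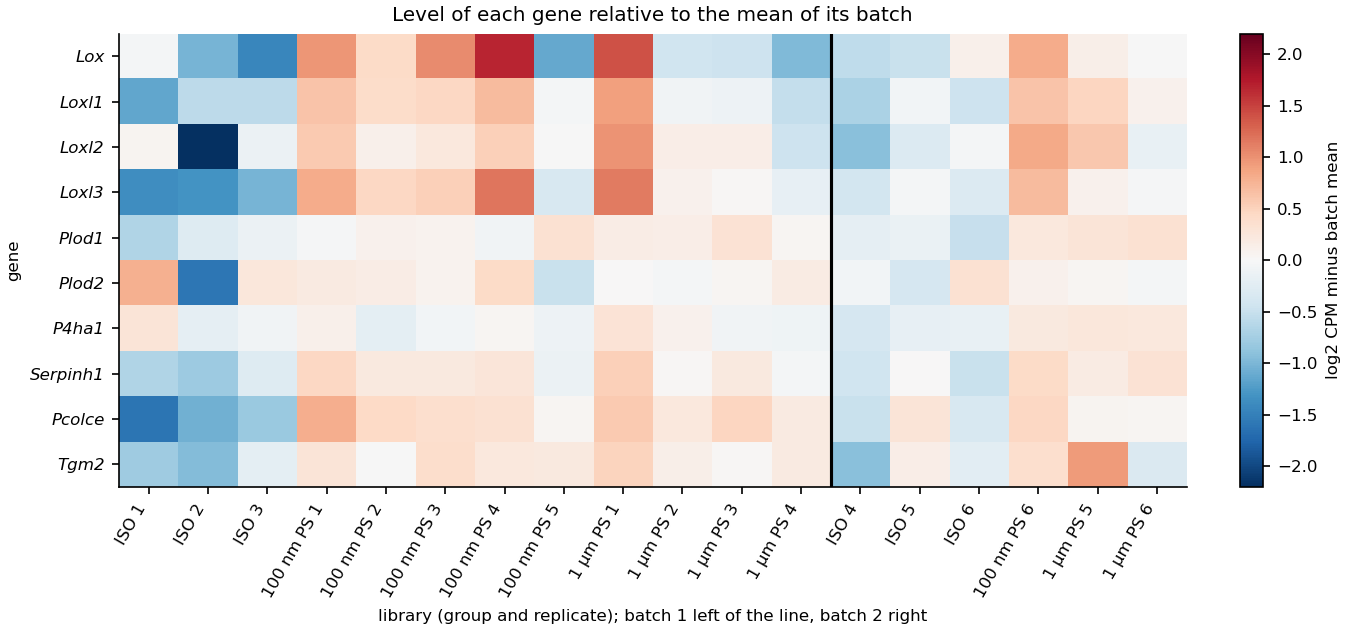
Log2 CPM of each gene minus the mean of its batch, in all 18 libraries, with batch 1 left and batch 2 right of the line; red is above and blue below the batch mean. ISO replicate 2 had the lowest median over the 10 genes (-0.99) and 1 µm replicate 1 the highest (0.55).

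Most of the 10 genes were high or low in the same libraries. After each value was set against its batch mean, 1 µm replicate 1 was the highest of its group for 7 of the 10 genes. The lowest library was replicate 4 of the 1 µm group and replicate 5 of the 100 nm group, each for 7 genes. In 1 µm replicate 1, Lox was at 47.4 CPM against 5.91 to 13.3 CPM in the other 5, and Loxl3 at 25.7 against 9.86 to 12.4 CPM. Over the 18 libraries, which share the group differences and the depth of each library, Pearson's r of these batch-centred values between genes was 0.92 for Loxl1 and Loxl3, 0.90 for Serpinh1 and Pcolce, and 0.89 for Loxl3 and Pcolce. Plod2 stood apart, with r of 0.066 with Loxl1, 0.094 with Pcolce and -0.14 with Plod1, but 0.69 with Loxl2.

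Within both batches every PS library lay above every ISO library for Loxl1, Loxl3, Plod1 and Serpinh1, 4 of the 10 genes, against 2.04% of all genes tested. With 100 nm PS alone this held for 6 genes, Pcolce and Tgm2 included (5.75% of all genes), and with 1 µm PS alone for 4 (3.12%). Over all libraries, without regard to batch, it held for Loxl3 and Plod1 at 1 µm (1.12%).

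The genes with a pattern most like each of these 6 were found by Pearson's r of batch-centred log2 CPM over 18 libraries, as a description. They were Mrc2 (0.93), Ttc9 (0.93) and Txndc5 (0.93) for Loxl1, and Nbl1 (0.95), Ltbp2 (0.95) and Serpinf1 (0.94) for Loxl3. For Serpinh1 they were Axl (0.97), Gas2l1 (0.96) and Htra3 (0.94), and for Pcolce Nbl1 (0.98), Rcn3 (0.97) and Igfbp4 (0.97). Plod1 was closest to Cdc42ep1 (0.96), Caskin2 (0.95) and Pcbp1 (0.94), and among the genes closest to Tgm2 were Kifc3 (0.94) and Alpl (0.93). Nbl1 was named for both Loxl3 and Pcolce.

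Levels of different genes were compared per length of the longest transcript. In ISO, Serpinh1 led with 111 ± 37.7 CPM per kilobase (mean ± SD, n = 6), followed by Tgm2 with 66.5 ± 27.4, Pcolce with 27.0 ± 12.3, Plod1 with 25.9 ± 4.42 and Loxl1 with 18.1 ± 3.63 CPM per kilobase. P4ha1 had 11.1 ± 1.52, Loxl2 4.63 ± 2.21, Plod2 4.14 ± 2.49, Lox 1.67 ± 1.05 and Loxl3 1.63 ± 0.524 CPM per kilobase. The means of Pcolce and Plod1, of Loxl2 and Plod2, and of Lox and Loxl3 differed by less than the SD of either gene. The other neighbours in this order differed by more than the SD of at least 1 of them. With 100 nm PS Lox reached 6.08 ± 3.93 and Plod2 4.84 ± 1.24 CPM per kilobase.

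The GC content of the transcripts divided the 10 genes in the same way as the edgeR test. In the longest GENCODE M21 transcript it was 52.7% to 61.0% in the 6 genes that passed (Plod1 52.7%, Loxl3 53.4%, Pcolce 54.8%, Serpinh1 56.4%, Tgm2 57.1%, Loxl1 61.0%). It was 43.0% to 51.7% in the 4 that did not (Plod2 43.0%, Lox 43.9%, P4ha1 45.7%, Loxl2 51.7%). Of all 4701 genes tested with a GC content in the range of the 6, 9.06% were higher at 100 nm and 7.06% at 1 µm. Of the 9522 genes below that range, 0.893% and 0.294% were higher, and of the 370 genes above it, 14.3% and 15.7%. This split was chosen after the values were seen. It follows the edgeR calls only, as DESeq2 also called Lox and Loxl2 at 100 nm and for the mean of both PS groups (7.57% and 11.1% of all genes were higher there).

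When each library was corrected for the GC content of its genes, none of the 10 genes passed at 100 nm or at 1 µm, where 0 and 1 of all 14623 genes were still higher (0% and 0.00684%; 1 and 2 genes were called in either direction). For the mean of both PS groups, Loxl3 (0.94, edgeR adjusted p = 0.0272) and Pcolce (0.67, adjusted p = 0.0263) still passed, against 1.14% of all genes. Loxl1 went from 0.97 to 0.31, Serpinh1 from 0.70 to 0.24, Tgm2 from 0.78 to 0.29 and Plod1 from 0.51 to 0.24. Lox moved the other way, from 1.04 to 1.17 (adjusted p = 0.0551), and Plod2 from -0.0064 to 0.26 (adjusted p = 0.300). With the correction, the values of the 6 genes were lower at both sizes than without it. The median over all genes fell as well, for the mean of both PS groups from -0.014 to -0.13. In that corrected comparison 167 genes were higher and 1669 lower.

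**Figure D4:**
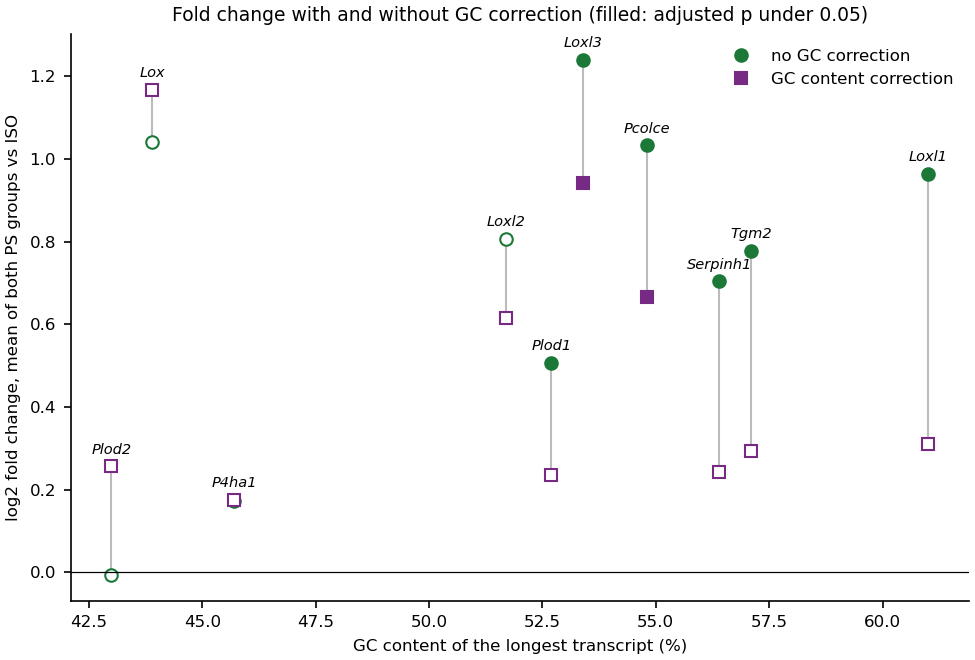
Log2 fold change for each gene with the PS groups averaged and set against ISO, by the GC content of its longest transcript, without (circles) and with (squares) a correction for GC content; filled symbols passed at an adjusted p under 0.05. The 6 filled circles lie at 52.7% GC and above, and with the correction Loxl3 and Pcolce stay filled.

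The other genes of collagen modification, processing and crosslinking were taken as 39 genes in 5 lists, of which 37 were tested. At 100 nm 15 of the 37 were higher and none lower, and at 1 µm 4 were higher and none lower, against the 3.88% and 2.89% of all genes given above. Tgm1 and Tgm3 had too few counts for the test.

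In hydroxylation and glycosylation, 4 of 12 genes were higher at 100 nm and 1 at 1 µm (median log2 fold change 0.53 and 0.36). Plod3, which hydroxylates and glycosylates collagen lysines, was at 35.3 to 51.1 CPM in ISO, 54.1 to 66.1 CPM at 100 nm and 50.1 to 64.5 CPM at 1 µm, and rose at both sizes (0.59, SE 0.13, edgeR adjusted p = 0.0138, and 0.55, SE 0.12, adjusted p = 0.0186). P3h3 (1.49, SE 0.42, adjusted p = 0.0338) and Crtap (0.69, SE 0.21, adjusted p = 0.0476), parts of the lysine and proline modifying complexes, rose at 100 nm. P4ha3, the least abundant prolyl 4-hydroxylase subunit here, passed at 100 nm (edgeR adjusted p = 0.0418), with 0 to 0.138 CPM in ISO and 0.123 to 1.46 CPM with 100 nm PS. P3h1, a prolyl 3-hydroxylase, passed for the mean of both PS groups (0.65, SE 0.22, adjusted p = 0.0453) and at neither size alone. P4hb, the partner of P4ha1 in prolyl 4-hydroxylase, and P4ha2, another catalytic subunit, had log2 fold changes of 0.19 (adjusted p = 0.372) and 0.10 (adjusted p = 0.678) at 100 nm.

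In folding and export 2 of 6 genes were higher at 100 nm and none at 1 µm (median 0.31 and 0.043). They were Fkbp10 (0.75, SE 0.20, edgeR adjusted p = 0.0268), a prolyl isomerase that acts with Plod2, and Creb3l1 (1.00, SE 0.31, adjusted p = 0.0485), a transcription factor of the secretory pathway. In propeptide cleavage 2 of 7 genes were higher at both sizes (median 0.78 and 0.64). Bmp1, the C-proteinase that Pcolce assists, rose by 0.89 (SE 0.18, adjusted p = 0.0125) and 0.73 (SE 0.18, adjusted p = 0.0257). Adamts2, the N-proteinase of fibrillar procollagens, rose by 1.16 (SE 0.24, adjusted p = 0.0119) and 0.85 (SE 0.23, adjusted p = 0.0336).

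Of 4 other crosslinking genes tested, none passed at either size (median 0.12 and 0.053). They include Loxl4, which was at 0 to 2.02 CPM in ISO and 1.66 to 5.07 CPM at 100 nm (1.47, SE 0.57, edgeR adjusted p = 0.104), the peroxidase Pxdn, factor XIII subunit F13a1 and the copper transporter Atp7a, which loads lysyl oxidases.

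At 100 nm the substrates showed the most calls of the 5 lists, 7 of 8. At 1 µm 1 substrate passed, fewer than the 2 of 7 in propeptide cleavage. The median of the substrates was 1.203 at 100 nm and 0.89 at 1 µm. At 100 nm Col1a1 rose by 1.86 (SE 0.50, edgeR adjusted p = 0.0289), Col1a2 by 1.21 (SE 0.29, adjusted p = 0.0205), Col3a1 by 1.19 (SE 0.33, adjusted p = 0.0343), Col5a2 by 1.19 (SE 0.33, adjusted p = 0.0329), Eln by 1.60 (SE 0.40, adjusted p = 0.0227) and Fn1 by 1.03 (SE 0.21, adjusted p = 0.0119). Col5a1, which helps to start type I fibrils, rose at both sizes (1.36, SE 0.32, adjusted p = 0.0182, and 1.11, SE 0.30, adjusted p = 0.0359). Fbln5, which guides elastic fibre assembly with Loxl1, did not pass (0.78, adjusted p = 0.107 at 100 nm). Among these 15 genes, Col3a1 and Col5a2 had a transcript GC content of 52.5% and 49.7%, and the other 13 were at 53.5% or above. Of the tested pathway genes that did not pass at 100 nm, several had a like GC content. P4hb, Tll2, Colgalt1, P3h1, Loxl4, P3h4 and Adamts14 were at 53.8% (P4hb) to 59.5% (Adamts14). The rest were at 52.7% (Pxdn) or below.

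**Figure D5:**
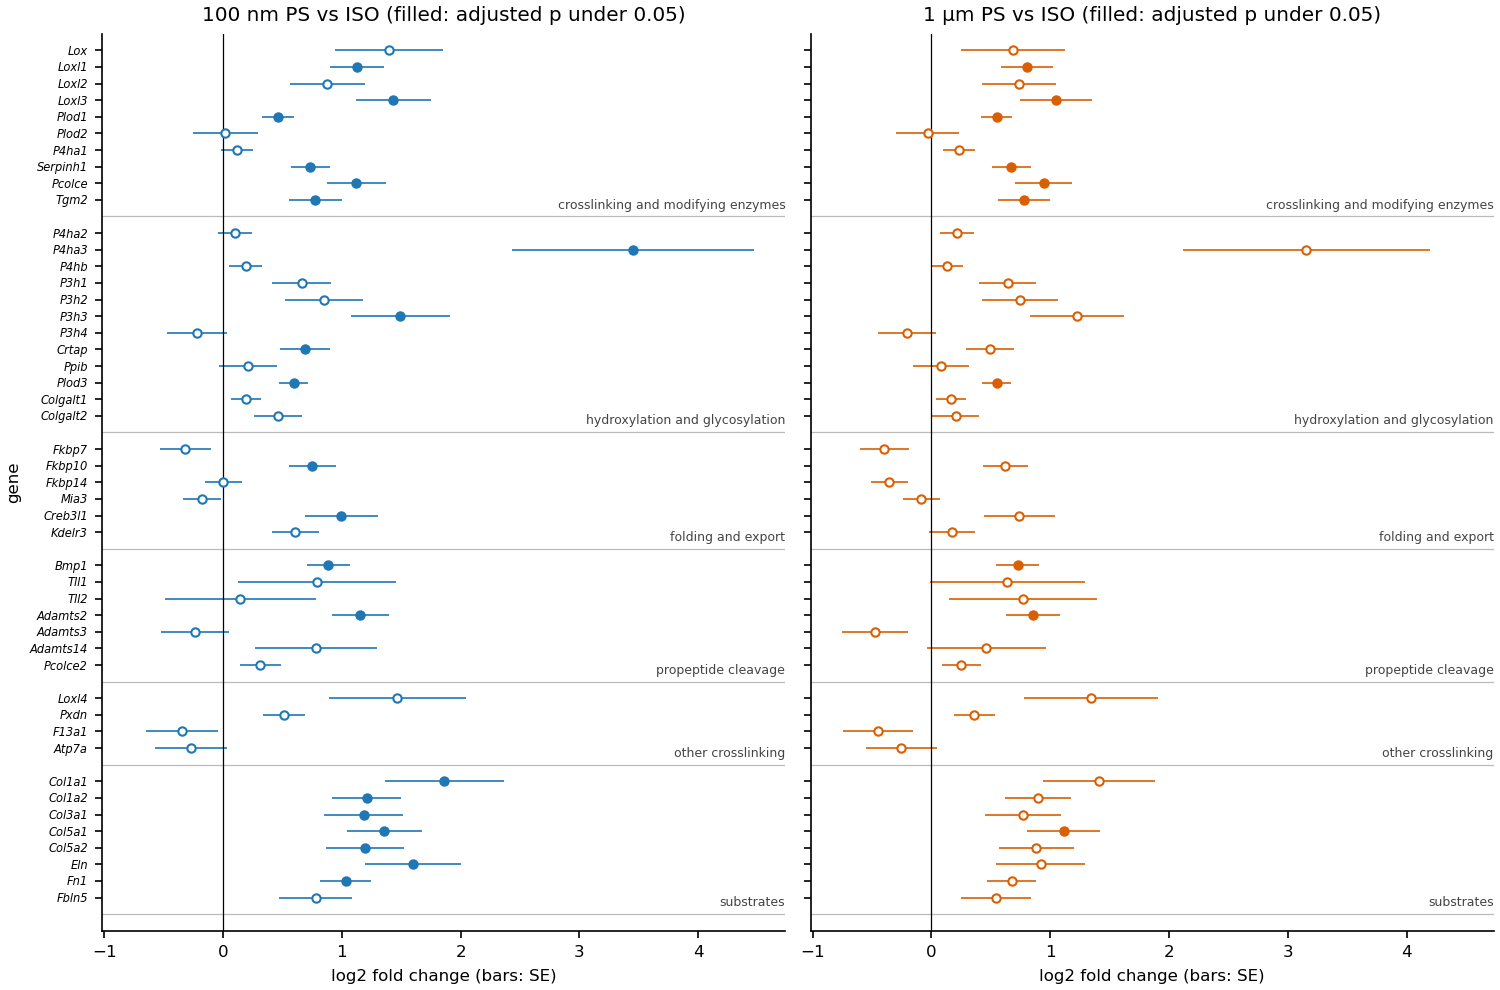
Log2 fold change with its SE for the 10 genes and 37 other tested genes of collagen modification and crosslinking, grouped by role, at 100 nm (left) and 1 µm (right) against ISO; filled points passed at an adjusted p under 0.05. The collagen, elastin and fibronectin substrates lie furthest right as a group, at medians of 1.203 and 0.89, and no gene passed with a value below 0.

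Ratios between an enzyme and its partner or substrate were computed for 6 pairs. The pairs were chosen with results known, so the ratios are a description and carry no test. The ratio of the CPM of Serpinh1 to that of Col1a1, one of its clients, was 1.17, 14.0, 1.54, 3.43, 1.51 and 1.34 in ISO replicates 1 to 6, with ISO replicate 2 far above the rest. It was 0.5001 to 1.14 with 100 nm PS and 0.647 to 1.67 with 1 µm PS. Within batch 1 the ISO ratios (1.17 to 14.0) lay above all PS ratios (0.5001 to 1.04), and in batch 2 (1.34 to 3.43 against 1.14 to 1.67) they overlapped. Without ISO replicates 1 and 2, an alternative chosen after the values were seen, the log2 difference between PS and ISO went from -1.37 to -0.70.

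In the other 5 ratios the ranges of ISO and PS overlapped. Lox to Col1a1 was at 0.0161 to 0.781 in ISO and 0.0191 to 0.0873 with PS. Pcolce to Bmp1 was at 1.22 to 2.38 in ISO and 1.81 to 2.61 with PS. The log2 difference between PS and ISO was -0.55 for Loxl1 to Eln, -0.35 for Plod2 to Plod1 and 0.015 for Loxl1 to Lox.

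Markers of the cells of the heart moved as follows in the same test, in which 3.88% of all genes were higher at 100 nm and 2.89% at 1 µm. Of 10 fibroblast markers 3 were higher at 100 nm and 1 at 1 µm, with summed levels of 880 to 1889 CPM in ISO, 1197 to 2140 CPM at 100 nm and 895 to 1912 CPM at 1 µm. Those that rose were Pi16, Islr and Col15a1, while Pdgfra, Tcf21, Dpt, Dcn, Lum, Ddr2 and Abca8a did not pass. Transcript GC content was 54.9% in Pi16, 56.0% in Islr and 56.4% in Col15a1. In the fibroblast markers that did not pass it was 37.4% (Dcn) to 49.9% (Tcf21). Of 8 smooth muscle and pericyte markers 4 were higher at both sizes (Acta2, Cspg4, Notch3 and Pdgfrb), with sums of 492 to 1705 CPM in ISO, 1347 to 1923 CPM at 100 nm and 1377 to 2031 CPM at 1 µm. Tagln was at 0 to 0.375 CPM in batch 1 and 64.5 to 124 CPM in batch 2, so its values do not compare between batches. Cnn1 was at 0 in at least 1 ISO library. Pdgfrb, Cspg4 and Notch3 were at 54.9%, 59.2% and 59.6% GC, but Acta2 was at 49.6%. Myh11, which passed at neither size, was at 53.1%.

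Of 8 endothelial markers 3 were higher at 100 nm (Eng, Esam and Vwf) and Eng at 1 µm, with sums of 689 to 2018 CPM in ISO, 1762 to 2621 CPM at 100 nm and 1851 to 2691 CPM at 1 µm. Eng, Esam and Vwf were at 57.4%, 53.7% and 56.5% GC, and the other endothelial markers at 40.7% (Emcn) to 52.2% (Cdh5). No macrophage (7), cardiomyocyte (7) or mesothelial (6) marker passed at either size. Many of these also had a GC content in the range of the 6 genes that passed. The macrophage markers C1qa, Csf1r and Cd68 were at 59.5%, 54.5% and 52.9% GC. The cardiomyocyte markers Myh6, Mybpc3, Tnni3 and Actn2 were at 56.4%, 56.55%, 55.8% and 55.1%. The mesothelial markers Krt19, Krt18, Msln, Upk3b and Wt1 were at 57.55%, 56.4%, 55.5%, 54.0% and 53.7%. The rest were at 43.4% (Mrc1) to 52.3% (Actc1). Summed mesothelial levels ran from 2.39 to 131 CPM in ISO, 21.9 to 149 CPM at 100 nm and 12.7 to 87.4 CPM at 1 µm, with Msln, Upk3b, Upk1b, Krt18 and Krt19 at 0 in at least 1 library. Of 4 atrial markers tested, Myl4 and Dkk3 were higher at 100 nm. For Myl4, replicate 1 held the high value given above. Dkk3 had a lowest, median and highest level of 2.45, 3.89 and 8.32 CPM in ISO and of 6.31, 19.0 and 139 CPM at 100 nm. The part of these cell types in the levels of the 10 genes was not tested.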

How the data were processed

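Poly(A) RNA of 18 mouse hearts was sequenced as paired-end reads by 2 providers, per the labels' protocols. Per the submitters' processing notes, the tools were HISAT2 2.0.5, featureCounts 1.5.0-p3, StringTie 1.3.3b, fastp and DESeq2 with the build GRCm39 (mm39); neither their roles nor the strand setting are given. The authors deposited raw read counts per gene for batch 1 (46548 entries, of which 215 without a gene name were left out, 0.16% to 0.39% of counts). For batch 2 they deposited estimated counts (57010 entries), in which 19.6% of nonzero values are not whole, and these were rounded. The tables were joined on 22145 pairs of identifiers and 13415 symbols. The joined genes hold 98.9% to 99.5% of counts in batch 1, but 85.2% to 87.5% in ISO and 93.1% to 95.8% in PS libraries of batch 2. There were 0 columns of no sample.

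Genes were kept by edgeR's filterByExpr (minimum count 10) and tested in R 4.3.3 with edgeR 4.0.16 (limma 3.58.1): TMM scaling, group and batch as terms, all 18 libraries in 1 robust quasi-likelihood fit with 14 residual degrees of freedom, Benjamini-Hochberg adjustment over 14623 genes. The code of the fit was checked on simulated counts with 200 changed genes. These counts held no batch effect and no outlying library, so the check does not speak for the calls here. Log2 CPM for likeness used a prior count of 2. The labels number 6 mice in each group as the libraries are numbered, so each library was taken as 1 mouse. Lengths, GC content and exon overlaps come from GENCODE M21. The alternatives were DESeq2 1.42.0, RLE size factors, no filter, a filter of 1 CPM in 6 libraries, no batch term, each batch alone, a replicate block, a correction for GC content (spline with 5 degrees of freedom, GC content known for 99.8% of genes) and leaving out each library or ISO replicates 1 and 2. The ratios without those libraries and the split by GC content were chosen after the values were seen.

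All 10 genes are named in every comparison. Of the pathway genes, those that passed in any comparison are given with values, and for each of the 10 genes that passed, the 3 genes with the highest correlation are named, except 1 that is not reported here. P4hb, P4ha2, Loxl4, Fbln5 and the markers were named after their values were seen. The members, lists and ratios were chosen with earlier results of these data known, so a permutation test run on the ratios is not reported.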

Additional observations from a re-analysis of the deposited data

Results flagged for a closer look

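For each gene, the log2 CPM of the 6 libraries of a group was taken without centring within batch. The gap between the highest or lowest library and its nearest neighbour was divided by the range of the group. This was done for 30 groups (10 genes in 3 groups). Below are the values above Dixon's 95% critical value, which chance exceeds in about 1 in 20 groups of like libraries. Each group here mixes both batches, so that rate is not assured, and a flag can reflect the batch. Loxl2 exceeded it in ISO, where replicate 2 was the lowest library (0.695), and with 100 nm PS, where replicate 6 was the highest (0.631). That replicate 6 is the one 100 nm library of batch 2. In ISO, Loxl2 lay at 21.5 to 39.8 CPM in batch 2 and at 5.25 to 25.6 CPM in batch 1. Against its batch mean, 100 nm replicate 6 was at 0.84 on the log2 scale and 100 nm replicate 1 at 0.58. Loxl3 exceeded it with 1 µm PS, where replicate 1 was the highest (0.762). Tgm2 exceeded it with 1 µm PS, where replicate 5 was the highest (0.636).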

How the results depend on the processing

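The log2 fold changes of Loxl1, Loxl3, Plod1, Serpinh1, Pcolce and Tgm2 against ISO stayed above 0 in every alternative run, but their calls were not stable, and the cause was not tested. Precision is limited by 6 libraries a group and by the single 100 nm library of batch 2.

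Of the 10 genes, 6 were higher at 100 nm, at 1 µm and for the mean of both PS groups, against 3.88%, 2.89% and 6.8% of all genes. In batch 2 alone these numbers were 0, 0 and 0, with the GC content correction 0, 0 and 2, with no batch term 0, 0 and 3, and without ISO replicates 1 and 2 they were 1, 1 and 3. In batch 1 alone they were 5, 2 and 5 (3.01%, 1.7% and 4.74% of all genes). With no filter on low counts they were 4, 2 and 6, against 304, 193 and 775 of all 23870 genes. When 1 library was left out, 2 to 6 were higher at 100 nm (2 without 100 nm replicate 6), 0 to 6 at 1 µm and 6 to 7 for the mean. Those fits tested 14765 to 14840 genes. Of these, 53 to 981 were higher at 100 nm, 93 to 1056 at 1 µm and 714 to 1468 for the mean. RLE size factors and the filter of 1 CPM in 6 libraries left 6 in each. Over all genes, RLE size factors gave 576, 442 and 999 higher of 14623. The stricter filter gave 590, 459 and 1012 higher of 13579.

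Over all genes, 1399 were called at 100 nm, 1081 at 1 µm and 2590 for the mean. DESeq2 called 2607 and 2322 at 100 nm and 1 µm, no filter 717 and 481, the GC content correction 1 and 2, and no batch term 0, 0 and 709 for the mean. Batch 2 alone gave 7, 11 and 272, and batch 1 alone 598 at 1 µm. Without ISO replicates 1 and 2, 606 were called at 100 nm and 1543 for the mean. Leaving out 1 library gave 170 to 2283 at 100 nm (170 without 100 nm replicate 6), 265 to 2334 at 1 µm (265 without 1 µm replicate 1) and 1925 to 3458 for the mean. Batch 2 alone called 1 gene between the sizes. The batch-by-PS test called 366 genes, 1241 by DESeq2 (with 1 of the 10 genes, lower) and 15 to 3321 with 1 library left out (0 to 1 of the 10 genes higher and 0 to 1 lower, both in the fit without ISO replicate 2).

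Same-numbered libraries of different groups did not deviate together after group and batch were removed. Of 18 pairs, 3 had a correlation over 0.1 (range -0.437 to 0.229), and 0 libraries were closest to their own number. The median was -0.162 for these pairs and 0.0412 for other pairs between groups. The number was therefore treated as only a name, although this cannot exclude a factor shared by number. With a replicate block, 0, 0 and 467 genes were called at 100 nm, at 1 µm and for the mean, with 0, 0 and 4 of the 10, and 3 in the batch-by-PS test. The replicate block turned the sign of small values, to -0.016 for Tgm2 between the sizes, to 0.086 and 0.12 for Plod2 at 1 µm and the mean, and to -0.25 for Loxl2 and -0.024 for Plod2 in the batch-by-PS test.

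Other signs that turned belonged to values that had not passed. Plod2 at 1 µm was 0.25 with the GC content correction and 0.072 with no batch term. Its mean was 0.26 and 0.15 under the same settings, 0.040 in batch 2 alone and 0.016 with no filter. At 100 nm it was -0.030 in batch 1 alone and -0.031 without ISO replicates 1 and 2. P4ha1 in batch 1 alone was -0.061 at 100 nm and -0.0079 for the mean, and between the sizes -0.0095 in batch 2 alone. Between the sizes, Serpinh1 was 0.045 with no batch term, and Tgm2 -0.0022 in batch 1 alone and -0.0043 with the stricter filter. The log2 difference of Loxl1 to Lox was -0.23 without ISO replicates 1 and 2.

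With 1 library left out, Plod2 ranged from -0.24 to 0.30 at 100 nm, -0.26 to 0.22 at 1 µm, -0.25 to 0.26 for the mean, -0.14 to 0.019 between the sizes and -0.44 to 0.51 in the batch-by-PS test. Tgm2 ranged from -0.12 to 0.10 between the sizes and from -0.52 to 0.10 in the batch-by-PS test, Loxl2 there from -0.26 to 0.54 and Plod1 from -0.026 to 0.22.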
